A study of Caenorhabditis elegans with 15 samples.

Results

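RNAs recovered with the eIF4E paralogs IFE-1 and IFE-3 of Caenorhabditis elegans were compared. Each pull-down was first set against a pull-down of its own tag. A pull-down of a protein followed by sequencing of the RNA on the beads is called RIP. For each replicate number the log2 ratio of IFE-1 RIP over mKate control RIP and the log2 ratio of IFE-3 RIP over GFP control RIP were formed, and the 3 IFE-1 ratios were compared with the 3 IFE-3 ratios. All genes with at least 1 TPM (a length-normalised abundance) in at least 3 of the 12 RIP libraries were taken, which gave 14114 of the 46934 genes in the table, and 12 of the 15 libraries of the study. IFE-1 RIP and IFE-3 RIP came from a single strain, KX155, which carries mKate::ife-1 on chromosome III together with GFP::ife-3 on chromosome V, both made by CRISPR. The mKate control RIP came from strain LP307 (mKate::PH) and the GFP control RIP from strain LP306 (GFP::PH), each with its insertion on chromosome II. The promoter behind these insertions is not given in the sources used here. IFE-1 RIP and mKate control RIP were bound to beads against RFP, and IFE-3 RIP and GFP control RIP to beads against GFP. All groups were whole worms grown for 3 days at 20 °C, with 3 libraries each that the labels call biological replicates. Each ratio sets a pull-down against one with the same trap and tag, but strain differs within each ratio, so strain and bound protein cannot be told apart. Between the arms, trap, tag and paralog coincide and cannot be told apart in the RIPs alone.

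The eIF4E proteins bind the cap at the 5' end of mRNAs and bring them to the translation machinery, and repressor proteins can hold the same cap-bound complex silent. In nematodes many mRNAs receive a trimethylated cap through trans-splicing of a spliced leader, while others keep the usual monomethylated cap. IFE-1 is known to bind both kinds of cap and to sit on germ granules through PGL-1, whereas IFE-3 is known to bind the monomethylated cap. In the RefSeq annotation of build WBcel235, ife-1 is a protein-coding gene on chromosome III from 13343417 to 13344618, and ife-3 is one on chromosome V from 6584 to 7829. The table of values gives WormBase IDs only, and 0 of its 46934 IDs were paired with a symbol in the gene table used here. Transcripts of the tagged genes, gene families and tissue markers could therefore not be looked up, and genes are described by ID, level and pattern.

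The 12 libraries held between 11004 and 14306 genes at 1 TPM or more, with the highest number in GFP control RIP replicate 1. The 10 most abundant genes took from 57.8% (GFP control RIP replicate 3) to 75.1% (mKate control RIP replicate 1) of the TPM. Libraries were scaled by factors of 0.820 to 0.974 in the IFE RIPs and of 0.989 to 1.28 in the control RIPs. Values within a group spread most in GFP control RIP, where the median SD over genes was 0.39 on the log2(scaled TPM + 1) scale, and it was 0.19 for IFE-1 RIP, 0.23 for mKate control RIP and 0.21 for IFE-3 RIP. Depth is unknown because TPM does not keep it, and it does not show how much RNA the beads held. In whole worms, fewer cells of a type and less RNA per cell cannot be told apart. The series' design text says that the control RIPs represented mRNA poorly and that the submitters did not use them. Of the genes kept, 952 reached 1 TPM in exactly 3 libraries, where the third highest value had a median of 1.17 TPM, and 1464 genes with only 2 such libraries stayed out, with a median of 0.685 TPM. Of the 952, 39 reached it in GFP control RIP alone, 12 in mKate control RIP alone, 4 in IFE-1 RIP alone and 0 in IFE-3 RIP alone.

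No gene separated the paralogs at an adjusted p under 0.05 when the 3 IFE-1 ratios were compared with the 3 IFE-3 ratios. With limma, 0 of 14114 genes (0%) passed, the smallest adjusted p was 0.0549, and 713 genes had an adjusted p under 0.1. The same contrast over the 12 single libraries gave 45 calls without a replicate block and 923 with one, described further on. The handling of low values also changed the count from the ratios, as given there. At an unadjusted p under 0.05 there were 3161 genes (22.4%), of which 1526 (10.8%) had higher IFE-1 ratios and 1635 (11.6%) had higher IFE-3 ratios. The log2 difference between the ratios, IFE-1 minus IFE-3, had a median of 0.01 over all genes and lay between -0.40 and 0.45 for the middle 50% of them. It reached at least 2-fold toward IFE-1 in 1100 genes (7.79%) and at least 2-fold toward IFE-3 in 772 genes (5.47%). The ratios of both arms did not overlap in 4022 genes (28.5%). The IFE-1 ratios were all higher in 1858 of these genes (13.2%), and the IFE-3 ratios were all higher in 2164 (15.3%). With TPM as deposited the same counts were 2403 and 1406, and the median of all genes moved to 0.08.

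The individual ratios differed between replicates as well as between arms. At least 2-fold more than in the control was found for 1523, 1009 and 814 genes in IFE-1 ratios 1, 2 and 3, and for 1211, 960 and 1122 genes in IFE-3 ratios 1, 2 and 3. At least 2-fold less was found for 508, 707 and 642 genes in the IFE-1 ratios, and for 1236, 594 and 928 genes in the IFE-3 ratios. The arms overlapped in both counts. The two-sided exact permutation p was 0.9 for the genes above and 0.3 for the genes below the control, where 3 against 3 ratios can give no less than 0.1. The SD of the log2 ratios over genes averaged 0.71 ± 0.03 in the IFE-1 arm and 0.82 ± 0.11 in the IFE-3 arm (SD, n = 3 each, exact permutation p = 0.2, two-sided). Adjusted over these 3 permutation tests by Benjamini-Hochberg, p was 0.9 for the genes above, 0.45 for the genes below and 0.45 for the SD. Across genes, Pearson's r between ratios lay from 0.281 to 0.365 within the IFE-1 arm, from 0.157 to 0.341 within the IFE-3 arm and from -0.0208 to 0.208 between the arms. These correlations are across 14114 genes, which are not independent replicates, and each ratio holds a control library of its own.

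The difference between the ratios equals the difference between the RIPs (IFE-1 RIP minus IFE-3 RIP, called the RIP part) minus the difference between the controls (mKate control RIP minus GFP control RIP, called the control part). The control part varied more over genes, with an SD of 0.56 against 0.41 for the RIP part, and a covariance of -0.02 between them. It was the larger of the parts in 8841 genes (62.6% of all tested). Among genes whose ratios were all higher for IFE-1, the control part was the larger one in 1574 of 1858 genes (84.7%). In these genes the median RIP part was 0.20 and the median control part was -0.56, that is, lower levels with mKate control RIP than with GFP control RIP. Among genes whose ratios were all higher for IFE-3, the control part was larger in 1046 of 2164 genes (48.3%), with a median RIP part of -0.34 and a median control part of 0.37. These gene sets were picked by the same difference, so the shares are a description and carry no test. The shares for the IFE-1 and IFE-3 sides were 92.6% and 34.5% with TPM as deposited and 83.8% and 58.5% after quantile normalization. Without replicates 1, 2 and 3 in turn they were 80.4% and 64%, 79.1% and 59.2%, and 74.2% and 44.6%. The genes were picked anew in each of these settings, so the sets are not the same. With a replicate left out only 2 ratios an arm must not overlap, which is easier to meet. It was met by 3286 to 3576 genes on the IFE-1 side and 3415 to 3859 on the IFE-3 side. What part the larger spread of the GFP control RIP libraries has in these shares was not tested.

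**Figure D1:**
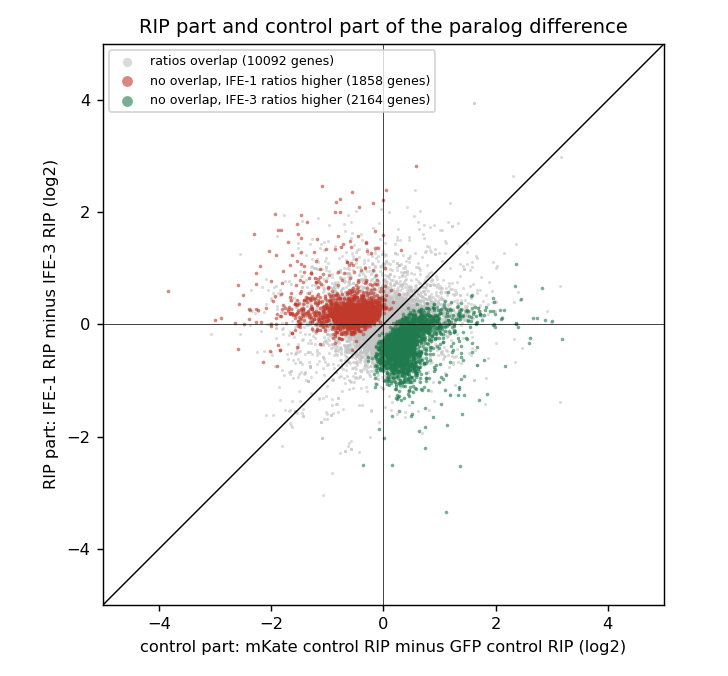
RIP part (IFE-1 RIP minus IFE-3 RIP, vertical, log2) against control part (mKate control RIP minus GFP control RIP, horizontal, log2) for the 14114 genes, 1 point each. On the diagonal the control-corrected difference is 0; the 1858 genes with all IFE-1 ratios higher lie above it and mostly to the left of 0 on the control axis, and the 2164 genes with all IFE-3 ratios higher lie below it, to the right of and below 0.

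Abundant RNAs had a median difference toward IFE-1, while their levels spread widely between control replicates. The 483 genes averaging 100 scaled TPM or more had a median difference of 0.32 toward IFE-1, against 0.01 over all genes tested. In 140 of them (29%) the IFE-1 ratios were all higher, against 13.2% of all genes, and in 39 (8.07%) the IFE-3 ratios were all higher, against 15.3% of all genes. Their median log2 ratio to the control was 1.02, 0.77 and 0.53 in IFE-1 ratios 1, 2 and 3, and 0.56, 0.33 and -0.13 in IFE-3 ratios 1, 2 and 3. The arms overlapped, since IFE-3 ratio 1 was above IFE-1 ratio 3, while in each replicate number the IFE-1 ratio was the higher one. The control part of these genes had a median of -0.44, and their median RIP part was 0.14. The control part was below 0 in 334 of 483 (69.2%), against 51.2% of all genes. In these genes the median SD within a group was 0.64 for the GFP control and 0.48 for the mKate control. For the pull-downs of IFE-3 and IFE-1 it was 0.22 and 0.25. These SDs describe single libraries for each gene. The median difference of 0.32 is taken over 483 genes and over means of 3 ratios, so it cannot be set directly against them. Whether this difference stands out from the spread of the controls was not tested. The abundant genes held 88.1% to 90.1% of the TPM in IFE-1 RIP libraries, 87.7% to 88.7% in mKate control libraries, 87.9% to 89.6% in IFE-3 RIP libraries and 85.7% to 86.6% in GFP control libraries. Their median difference was 0.42 with TPM as deposited and 0.10 after quantile normalization, which placed the median of all genes at -0.06. It was 0.51 without IFE-3 ratio 1 and 0.19 without IFE-3 ratio 3. In the fit of the 12 single libraries without a block it was 0.58 without GFP control RIP replicate 1, 0.15 without GFP control RIP replicate 3, 0.15 without mKate control RIP replicate 1 and 0.53 without mKate control RIP replicate 3.

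In the less abundant RNAs the median difference lay closer to 0. From 10 to under 100 scaled TPM the median difference was -0.04 over 3084 genes, and the IFE-1 ratios were all higher in 468 genes (15.2%) and the IFE-3 ratios in 614 (19.9%), where 13.2% and 15.3% of all genes were so. From 1 to under 10 scaled TPM it was -0.01 over 8772 genes, with 1093 genes (12.5%) on the IFE-1 side and 1421 (16.2%) on the IFE-3 side, shares near those of all genes. Under 1 scaled TPM it was 0.10 over 1775 genes, with 157 genes (8.85%) on the IFE-1 side and 90 (5.07%) on the IFE-3 side. The 952 genes at 1 TPM or more in exactly 3 libraries had a median difference of 0.18. How far the filter bears on these medians was not tested.

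**Figure D2:**
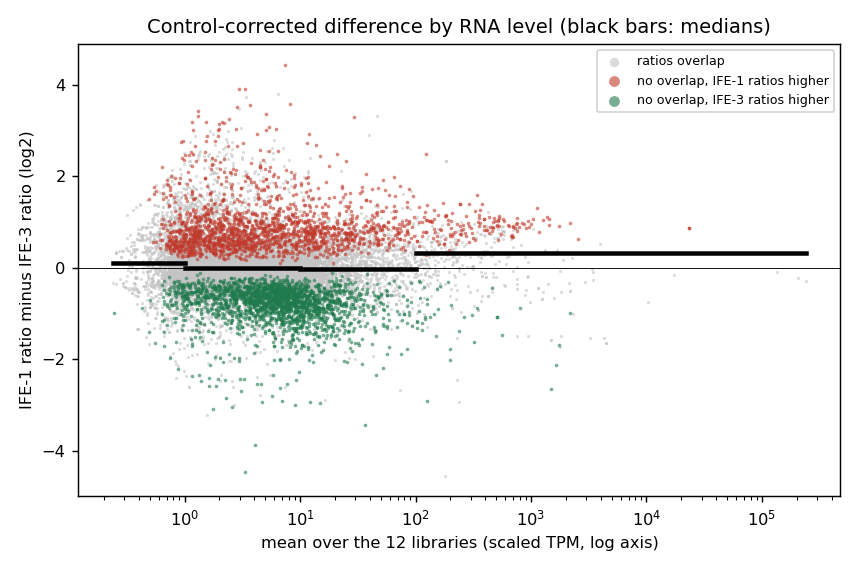
Control-corrected difference (IFE-1 ratio minus IFE-3 ratio, log2) against the mean over the 12 libraries (scaled TPM, log axis), 1 point per gene, with black bars at the median of each level range. The bars lie near 0 up to 100 scaled TPM and at 0.32 above it, where points with all IFE-1 ratios higher outnumber those with all IFE-3 ratios higher by 140 to 39.

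Genes were named by a fixed rule: ratios that do not overlap, an unadjusted p under 0.05, a level averaging 10 scaled TPM or more in some group, and the largest difference. It left 529 genes on the IFE-1 side and 699 on the IFE-3 side, none of them called, and the 12 largest on each side were taken. Only the first 2 of each side are given by ID.

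On the IFE-1 side the largest difference was that of WBGene00196985. Its scaled TPM was 16.5, 2.77 and 10.6 for IFE-1 RIP (replicates 1, 2 and 3), and it was listed at 0 throughout mKate control RIP. With IFE-3 RIP it measured 9.32, 5.75 and 2.19, against 20.0, 11.5 and 10.4 with GFP control RIP. Levels in the IFE RIPs overlapped, whereas every GFP control RIP library lay above every mKate control RIP library. The log2 difference was 4.44 ± 0.61 SE (limma adjusted p = 0.0549), with a RIP part of 0.59 and a control part of -3.85. Because the mKate control was listed at 0, this value depends on the pseudocount, and it was 7.74 with a pseudocount of 0.1 and 2.30 with 5, where it passed the threshold (limma adjusted p = 0.0359). The gene was also listed at 0 in all 3 total RNA libraries.

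WBGene00199251 came second. Its scaled TPM was 16.1, 8.43 and 11.6 for IFE-1 RIP, against 2.99, 4.75 and 5.21 for mKate control RIP, so these groups did not overlap. With IFE-3 RIP it measured 3.57, 0 and 1.59, against 30.4, 2.93 and 10.5 with GFP control RIP, where 1 control library lay below the highest IFE-3 RIP library. Here the RIP part of 2.47 exceeded the control part of -1.10, and the log2 difference was 3.58 ± 0.42 SE (limma adjusted p = 0.0549). It was 4.99 with a pseudocount of 0.1 (limma adjusted p = 0.0845) and 2.17 with 5 (limma adjusted p = 0.0429), where it passed the threshold. In this gene all 3 IFE-1 ratios were above 0 (2.10, 0.71 and 1.02) and all 3 IFE-3 ratios were below 0 (-2.78, -1.97 and -2.14).

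On the IFE-3 side the largest difference was that of WBGene00202494. IFE-1 RIP listed it at 0 in every library, against 0, 0 and 9.29 scaled TPM for mKate control RIP. IFE-3 RIP gave 10.4, 15.5 and 4.63 scaled TPM, while GFP control RIP listed it at 0 in every library. Among the 12 libraries it was thus above 0 in the IFE-3 RIP libraries and in mKate control RIP replicate 3 only. All 3 total RNA libraries also listed this gene at 0. The log2 difference was -4.47 ± 0.96 SE (limma adjusted p = 0.0833), with a RIP part of -3.35 and a control part of 1.12, and it was -8.71 with a pseudocount of 0.1 and -2.04 with 5. With the ratio of IFE-1 RIP and mKate control RIP replicate 3 left out, it was -3.35.

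WBGene00201441 followed. Its scaled TPM was 1.74, 1.30 and 0 for IFE-1 RIP, against 0, 5.55 and 4.03 for mKate control RIP. With IFE-3 RIP it measured 23.3, 7.47 and 4.79, against 0, 0.926 and 0 with GFP control RIP. Its IFE-3 RIP levels all exceeded those in the IFE-1 RIP and GFP control RIP groups, while 1 of them lay below the highest mKate control RIP library. The log2 difference was -3.89 ± 1.08 SE (limma adjusted p = 0.120), with a RIP part of -2.52 and a control part of 1.37. It was -6.51 with a pseudocount of 0.1 and -1.90 with 5.

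**Figure D3:**
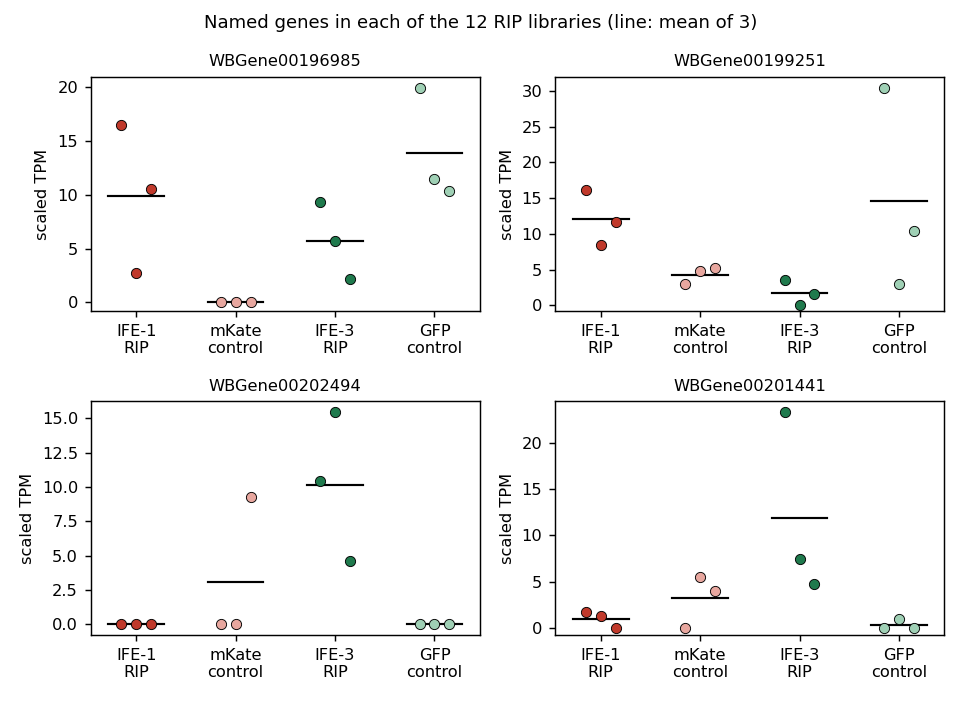
Scaled TPM of the 4 genes given by ID in each of the 12 RIP libraries, with points for the 3 replicates and a line at their mean. WBGene00196985 is at 0 in all mKate control RIP libraries, and WBGene00202494 is at 0 in every library of IFE-1 RIP and of GFP control RIP.

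The 12 genes of each side differed in where their highest level lay. The naming rule ranked them by the difference and asked for 10 scaled TPM in some group, which some genes reached in a single group. Where the highest level lay thus follows in part from the rule, and the counts below are a description without a test. On the IFE-1 side GFP control RIP had the highest group mean in all 12 genes, and the control part was the larger one in 10. Their log2 differences lay between 2.55 and 4.44, with a median RIP part of 0.65 and a median control part of -2.33. On the IFE-3 side IFE-3 RIP had the highest group mean in 9 of 12 genes and mKate control RIP in 3, and the control part was the larger one in 5. Their log2 differences lay between -2.46 and -4.47, with a median RIP part of -1.63 and a median control part of 1.36. Most of these RNAs were scarce: in 11 genes on the IFE-1 side and 10 on the IFE-3 side no group mean reached 50 scaled TPM, and 6 of the 12 genes on the IFE-1 side and 3 of the 12 on the IFE-3 side were listed at 0 in at least 1 library. The highest group mean among the 24 was 3772 scaled TPM, in IFE-3 RIP. Adjusted p-values from limma lay between 0.0549 and 0.154 on the IFE-1 side and between 0.0549 and 0.144 on the IFE-3 side.

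**Figure D4:**
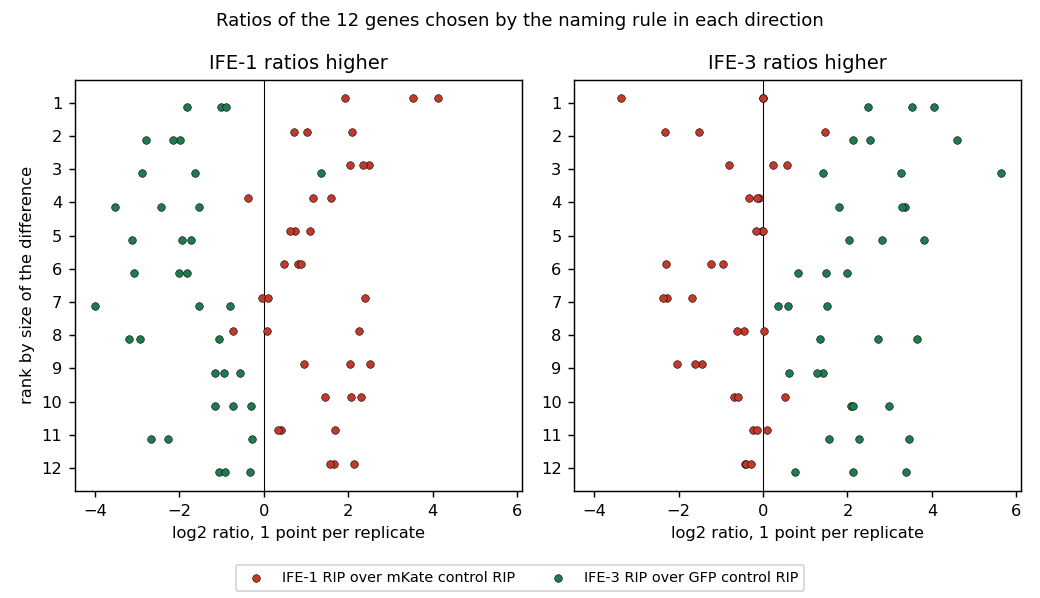
The 3 log2 ratios of IFE-1 RIP over mKate control RIP and the 3 log2 ratios of IFE-3 RIP over GFP control RIP for the 12 genes chosen on each side, ranked from the largest difference down. On the left the IFE-3 ratios lie mostly below 0, with GFP control RIP the highest group in all 12 genes; on the right the IFE-3 ratios all lie above 0.

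It was then asked how the tag controls behaved in RNAs that separate the RIPs directly. In a joint fit of both IFE RIPs with the total RNA libraries, limma called 169 of 12099 genes (1.4%) higher in IFE-3 RIP and 15 (0.124%) higher in IFE-1 RIP. The RIP libraries chose these genes, so only the control part, from other libraries, is independent of the choice. In the 169 genes the median RIP part was -1.02, the median control part was 0.25, and the control-corrected difference had a median of -1.19. The control part was below 0, the direction of the RIP part, in 48 of the 169 (28.4%), against 51.2% of all genes. It was the larger part in 13. The RIP part was at least 2-fold in 85 of the 169 and the control-corrected difference in 116, against 5.47% of all genes for the difference, and 55 genes were at least 2-fold in both. The difference lay toward IFE-1 in 7, and the ratios were all higher for IFE-3 in 127 (75.1%, against 15.3% of all genes). Since the RIP part chose these genes and enters the difference, nothing is read from these shares. In the 15 genes on the IFE-1 side the median RIP part was 1.60, the median control part was -0.53 and the median difference was 2.25. All 15 had a difference above 0, and the ratios were all higher for IFE-1 in 13 (86.7%, against 13.2% of all genes). Because limma called no gene at all from the ratios, none of the 169 or 15 could be among its calls. At an unadjusted p under 0.05 there were 125 of the 169 and 13 of the 15, against 22.4% of all genes. These counts too follow from the choice by the RIP part, and nothing is read from them.

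Whether genes were called depended on how replicate numbers entered the fit, and also on how low values were handled. In the ratio fit a pseudocount of 5 gave 308 calls. A minimum of 5 TPM gave 596 calls among 7299 genes tested. Fitting the 12 libraries as 4 groups without a replicate block keeps 8 residual degrees of freedom, against 4 for the ratios. This fit called 45 genes with limma (0.319%), 32 toward IFE-1 (0.227%) and 13 toward IFE-3 (0.0921%). The 32 genes had a median difference of 1.89, a median RIP part of 0.20 and a median control part of -1.54, and the control part was the larger in 31. The 13 genes had a median difference of -2.03, a median RIP part of -1.11 and a median control part of 0.89, and the control part was the larger in 6. With GFP control RIP replicate 3 left out the count was 41. It was 293 and 135 without GFP control RIP replicates 2 and 1, from 21 to 23 without IFE-1 RIP replicate 1, mKate control RIP replicates 1 and 3 or IFE-3 RIP replicate 3, and 2 without IFE-3 RIP replicate 2. No gene was called when IFE-1 RIP replicate 2 or 3, mKate control RIP replicate 2 or IFE-3 RIP replicate 1 was left out, and 1706 to 1912 genes then passed 0.05 unadjusted.

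When a single block for the replicate number was shared by all groups, limma called 923 genes (6.54%), 321 toward IFE-1 (2.27%) and 602 toward IFE-3 (4.27%). All 45 genes called without the block were among them. The 321 genes had a median difference of 1.17, with the control part larger in 298. The 602 genes had a median difference of -1.06, a median RIP part of -0.62 and a median control part of 0.43, with the control part larger in 192. Of the 169 genes higher in IFE-3 RIP than in IFE-1 RIP, 112 were called toward IFE-3, and both lists rest on the same RIP libraries. WBGene00196985 and WBGene00199251 had a limma adjusted p of 0.0122 and 0.0322 in this fit, and WBGene00202494 and WBGene00201441 one of 0.0510 and 0.0634. With TPM as deposited the block gave 494 genes toward IFE-1 and 298 toward IFE-3, so 62.4% of the calls were toward IFE-1, against 34.8% with scaled libraries. The count lay at 877 without GFP control RIP replicate 1, and moved by more than 1.5 times without each of the other 11 libraries. It was 2272 and 580 without GFP control RIP replicates 2 and 3. With replicates 1, 2 and 3 of the other groups left out in turn it was 147, 133 and 484 for IFE-1 RIP, 341, 131 and 272 for mKate control RIP, and 287, 341 and 266 for IFE-3 RIP.

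**Figure D5:**
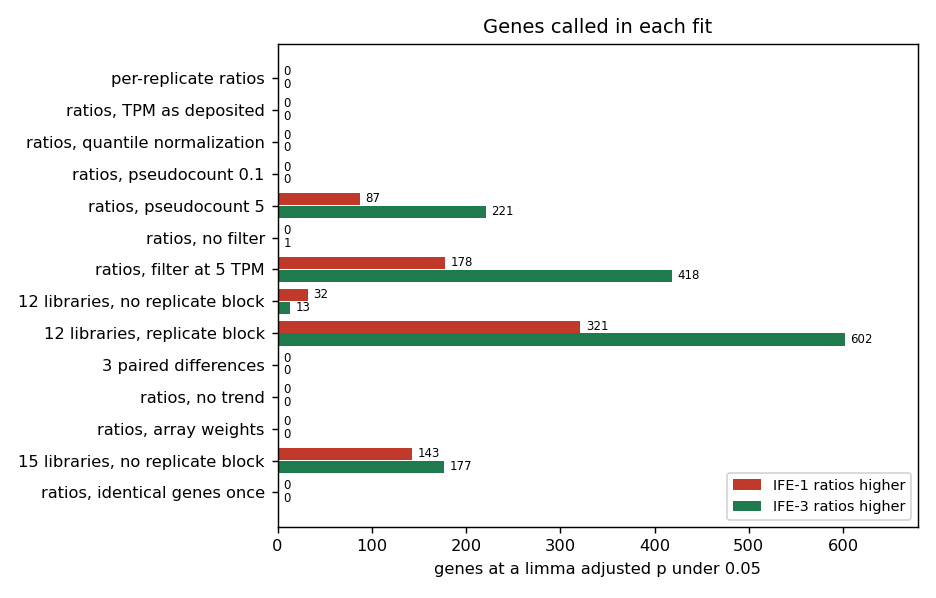
Genes at a limma adjusted p under 0.05 in each fit, by direction. The per-replicate ratios give 0 genes, the 12 libraries without a block 32 and 13, and the 12 libraries with the replicate block 321 and 602; ratios restricted to genes at 5 TPM give 178 and 418.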

How the data were processed

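The authors deposited TPM values for 15 libraries in a gene table. Tools named in the submitters' processing notes, with no role or order, are R 4.4.1, kallisto 0.48.0 and DESeq2 1.34.0, and the build named there is WBcel235. How transcripts were summed to genes, and any read filter, is not given in the sources used here. Per the labels' protocols, rRNA was depleted, libraries did not keep strand (sense and antisense genes cannot be separated), and beads were bound for 1.5 h and washed 4 times. The members, lists and tests were chosen with earlier results of these data known.

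Here each of the 12 RIP libraries was divided by its median ratio to the geometric mean over genes above 0 in all 12. Ratios were formed on log2(scaled TPM + 1), which understates changes of low genes, and compared with limma 3.58.1 in R 4.3.3 (lmFit, eBayes with trend, two-sided, Benjamini-Hochberg over 14114 genes, called at 0.05). The fits were run on simulated data with large changes in some genes and independent noise without replicate effects. That run cannot decide between the fits with and without a replicate block. P-values cover only the spread between these libraries. Among the genes tested, 334 in 141 sets (largest 14) had identical values in all 12 libraries, and their values are uncertain. The naming rule asked for up to 12 genes a side, of which 2 were printed because no symbols matched; gene lists, markers and gene types could not be applied.

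Replicate numbers pair libraries by a check of the data, not by the labels. Deviations from group means correlated at 0.130, 0.117 and 0.272 for numbers 1, 2 and 3 for the IFE-1 RIP with its mKate control, and at 0.143, 0.141 and 0.216 for the IFE-3 RIP with its GFP control, with at most 0.0814 and 0.0583 for unlike numbers. A block over all groups rests also on pairs across the traps. These correlated at 0.279, 0.208 and 0.264 for the IFE-1 RIP with the GFP control, at 0.159, 0.116 and 0.276 for the paralogs' RIPs, at 0.0984, 0.136 and 0.265 for the controls, and at 0.119, 0.0321 and 0.270 for the mKate control with the IFE-3 RIP. In the same order, unlike numbers reached at most -0.0190, 0.0542, 0.0795 and 0.116. For the mKate control with the IFE-3 RIP, number 2 thus lay below an unlike pair. Deviations sum to 0 within a group, so like and unlike numbers are not independent.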

Additional observations from a re-analysis of the deposited data

Results flagged for a closer look

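Results were looked at again where every IFE-1 ratio lay on one side of 0 and every IFE-3 ratio on the other. WBGene00196985 met this with a log2 difference of 4.44, its IFE-1 ratios being 4.13, 1.92 and 3.54 and its IFE-3 ratios -1.02, -0.89 and -1.83. WBGene00199251 met it with a log2 difference of 3.58. The difference was tested for both with limma on the ratios, and neither passed (adjusted p = 0.0549 each). In 583 of the 14114 genes the IFE-1 ratios were all above 0 and the IFE-3 ratios all below 0. These had a median RIP part of 0.20 and a median control part of -0.61. The opposite arrangement was found in 918 of the 14114 genes, with a median RIP part of -0.50 and a median control part of 0.36. Where 0 lies depends on the scaling of the libraries, and both counts were taken with scaled libraries only. Genes with ratios all higher for IFE-1 or for IFE-3 numbered 1858 and 2164 with scaled libraries. With TPM as deposited they numbered 2403 and 1406, so the larger side changed. As a set these counts were not tested, and 0 of these genes were called from the ratios. Groups of 3 libraries are too small for a check of single outlying libraries.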

How the results depend on the processing

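The number of genes called from the ratios was 0 with TPM as deposited, after quantile normalization, with a pseudocount of 0.1, without the mean-variance trend, with array weights, with identical genes taken once and with 3 paired differences (2582 genes at an unadjusted p under 0.05), and it stayed at 0 without any replicate number or single ratio (1858 to 3958 genes at an unadjusted p under 0.05). A pseudocount of 5 gave 308, a minimum of 5 TPM gave 596 among 7299 genes tested, and dropping the filter gave 1. It was 45 with no replicate block (320 with all 15 libraries) and 923 with the replicate block over all groups. Leaving out a library gave 0 to 293 calls with no replicate block (0, 2, 21, 22, 23, 41, 135 and 293) and 131 to 2272 with the replicate block (131, 133, 147, 266, 272, 287, 341, 484, 580, 877 and 2272). Counts without the block were 79 with TPM as deposited and 48 after quantile normalization, and with the block 792 and 980; these and the blocked fits with a library left out were chosen after seeing the data. The causes of these shifts were not tested. The 4 named genes kept their sign in all 50 alternatives. These genes were chosen for a large difference in the same libraries that the alternatives use again, so the kept sign is no independent support. The threshold was passed in 23 (WBGene00196985), 10 (WBGene00199251), 4 (WBGene00202494) and 2 (WBGene00201441) of the alternatives, which are not independent of each other. The alternatives on gene lists and protein-coding genes were not run, because no symbols or gene types matched. Depth is unknown, so no detection limit can be given.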
